A study of Mus musculus with 495 samples.

Results

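The ribosomal protein genes are the genes whose symbol starts with Rpl or Rps followed by a number, together with Rplp0, Rplp1, Rplp2 and Rpsa, leaving out names that end in -ps and the Rps6k kinases. This rule took 86 of the 23002 genes of the table: 46 of the large subunit, 31 of the small subunit and 9 paralogues or look-alikes (Rpl3l, Rpl7l1, Rpl10l, Rpl22l1, Rpl36al, Rpl39l, Rps4y2, Rps27l and Rps19bp1). Rps19bp1 meets the rule by its name only, since it encodes a protein that binds a ribosomal protein. Rps4y2 and Rps3a are older symbols, matched in the annotation to Rps4l on chromosome 6 and to Rps3a1 on chromosome 3. The counts came from 495 single cells of mouse embryonic pancreas sequenced on plates with Smart-seq2, which covers full-length transcripts without molecular identifiers. At E15.5 (embryonic day) the cells came from Neurog3-eGFP embryos, on plates coded Neurog3 (EA01 with 73 and EA03 with 70 cells), endocrine (EA02 with 72 and EA05 with 85 cells) and duct (EA04 with 66 cells). At E17.5 the cells came, as labelled, from Neurog3-Cre, Rosa-mTmG embryos (EA06 with 57 and EA07 with 72 cells), in which Cre driven by Neurog3 switches a membrane reporter. Stage and strain therefore change together and cannot be told apart.

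Each ribosome is built from ribosomal RNA and about one copy of each ribosomal protein, so cells make the proteins of both subunits in near-equal amounts. In mammals the messenger RNAs of these proteins share a start called the terminal oligopyrimidine (TOP) tract, a C followed by a run of pyrimidines, through which growth signals acting by mTOR set how strongly they are translated. A few ribosomal proteins have a second gene that encodes a near copy, and the balance between the copies can differ between tissues. In the developing pancreas, Neurog3 marks the short-lived precursors of the endocrine cells, Fev marks cells somewhat further along, and hormone genes mark the endocrine cells themselves, while acinar cells make digestive enzymes.

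The start sites of the genes on which the results below turn are shown first, to let the paralogue pairs and the TOP tract be read by eye. Each window runs from 18 bases before to 12 bases after the RefSeq start in GRCm38.p6, on the gene's own strand, and capitals mark a TOP-like tract, taken as a C within 5 bases of the start and at least 4 pyrimidines (C or T) after it.
Rpl36a (chrX:134585636-134585665, plus strand): gaagtgcacccaggcaccgcctataaactt
Rpl36al (chr12:69184056-69184085, minus strand): tcgcattcccgtcgctcaggttcagttccg
Rpl22 (chr4:152325708-152325737, plus strand): gacttcgccctgggaaaagcaatagctggc
Rpl22l1 (chr3:28805490-28805519, plus strand): tgcgtgcggcgcaagcccgttCTCTTCCCa
Rps27 (chr3:90213637-90213666, minus strand): aggatttccgctttcgctCCTTTCCggcgg
Rps27l (chr9:66946068-66946097, plus strand): tctccactcctccccgccgCCTCTatcccg
Rps9 (chr7:3704023-3704052, plus strand): ccaaccgccttgtctCTCTTTgtctcgggc
Rps2 (chr17:24720045-24720074, plus strand): cgtaggcagtcgagatctcgcgCTTCTTgg
Rpsa (chr9:120127748-120127777, plus strand): gctgtgggttatttaaggacgtcatttccg
Rpl37a (chr1:72711242-72711271, plus strand): cacttccgctcgccggtctaaaaccgcgca
The tract was found in both genes of the Rps27 pair, in neither gene of the Rpl36a pair, and in Rpl22l1 but not Rpl22. Among the 65 members with a window, 29 held it (44.6%), against 3758 of 17338 other genes (21.7%). A match describes the letters at one annotated start and is not evidence of a working tract.

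Cells were put into classes by their level in CPM, a gene's counts scaled to the cell's total. A cell was acinar with at least 10000 CPM of acinar enzyme genes, then hormone-dominated with at least 10000 CPM of 1 hormone, then Neurog3-positive or Fev-positive with at least 20 CPM of that gene. This gave 196 Neurog3-positive, 87 Fev-positive, 44 acinar and 61 other cells, and hormone-dominated cells on EA01 to EA03 (35), EA05 (39) and EA06 with EA07 (33). The classes are ranges of a level, not cell types: 49 cells lay within 2-fold of the hormone cut, and 16 hormone-dominated cells were also past the Neurog3 cut. The depth of a cell was 200152 to 1182889 counts, with a median of 533363, and 1237 to 6047 genes were detected. The first 4 plates (EA01 to EA04) and the last 3 were treated as separate library batches, with Rn45s, a ribosomal RNA precursor, at 20.6% to 23.04% of counts in the former and 8.83% to 10.3% in the latter. The labels name no batch, so this split is an assumption from the titles and the Rn45s share. In the summed counts of the acinar cells of EA04 none of the 26 acinar markers was at 0. Most of these markers are the enzyme genes that defined the class, so this was largely set by the rule. Of 8 hormone genes 7 were at 0 in all these cells. In Neurog3-positive, Fev-positive and hormone-dominated cells the summed mesenchyme, endothelial, immune and erythroid markers had a median of 0, with a highest cell of 11941 CPM for mesenchyme markers. No animal, litter or culture is named in the labels, so each class on a set of plates is 1 sample, no test was run, and intervals (95%) cover counting error only.

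Among the members, the level per kilobase of transcript in the Neurog3-positive cells of EA01 to EA03 was 3756 CPM for Rps14, the highest of all, 2699 CPM for Rps9 and 2535 CPM for Rpl32. Rps14, a protein of the small subunit, had 2242 CPM there, with 858 in the lowest cell, 2274 in the median cell and 4048 in the highest. Over all cells the 10 members with most counts held 30.7% of the ribosomal protein counts, large-subunit genes 53.7%, small-subunit genes 43.8% and the paralogues and look-alikes 2.48%. Rpl10l and Rpl39l had 0 counts in every cell, which allows at most 0.0107 CPM (3 counts over all cells), and Rpl3l was found in 2 cells only with 43 counts. Rpl34, Rpl26 and Rpl30, core proteins of the large subunit, were listed at only 17.7, 20.8 and 50.3 CPM, or 36.8, 39.6 and 88.2 CPM per kilobase. Beside them, the pseudogene row Rpl34-ps1 held 87.7 CPM. Reads from near-identical copies may be lost or split in counting: GENCODE M21 lists 5, 6 and 12 pseudogenes with at least 95% identity over at least 80% of the coding sequence for Rpl34, Rpl26 and Rpl30. Across 77 members the number of such copies and the level per kilobase had a Spearman correlation of -0.23, given as a description over genes that share libraries. The 16 members with at least 10 copies had a median of 521 CPM per kilobase and the 18 with at most 2 copies 581 CPM, with ranges of 88.2 to 709.8 and 172 to 3316 CPM. How the counting treated such copies is not given in the sources used here, so levels of single members with copies are uncertain, and the part of the copies in the low levels was not tested.

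The share of a cell's counts on ribosomal protein genes was, among the 3 endocrine classes, highest in Neurog3-positive cells and lower in Fev-positive and hormone-dominated cells of the same plate. In Neurog3-positive cells the summed share was 5.22% in EA01, 5.76% in EA02, 5.34% in EA03, 7.30% in EA05, 6.86% in EA06 and 3.397% in EA07. In Fev-positive cells it was 3.82%, 4.03%, 3.54%, 5.52%, 5.59% and 2.89% on the same plates. In hormone-dominated cells it was 3.46%, 3.203%, 2.88%, 4.49%, 5.31% and 2.61%. Outside these classes the share was above the Neurog3-positive value of the plate in the 1 acinar cell of EA02 (6.08%) and in the 2 cells without a class of EA07 (4.06%). Every one of the 6 plates thus put both later classes below the Neurog3-positive class, and hormone-dominated below Fev-positive cells. The hormone counts that define a class also lower its other shares. With Rn45s, hormone and enzyme genes left out of the total, the order stayed the same on each plate. Hormone-dominated and Fev-positive cells then lay between 4.67% and 4.78% in EA01, the closest plate, and 5.34% and 6.16% in EA05, the widest. Some of these classes are small. The Neurog3-positive class of EA05 held 7 cells (4.36% to 9.71%), so its values here and below rest on few cells. Fev-positive cells of EA06 numbered 8 and hormone-dominated cells of EA03 numbered 9. Single cells overlapped: in EA02, 13 of 14 hormone-dominated cells lay below the Neurog3-positive median of 5.72%, and 11 lay below the lowest Neurog3-positive cell. In EA07, 14 of 16 lay below the Neurog3-positive median and 1 below the lowest such cell.

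**Figure D1:**
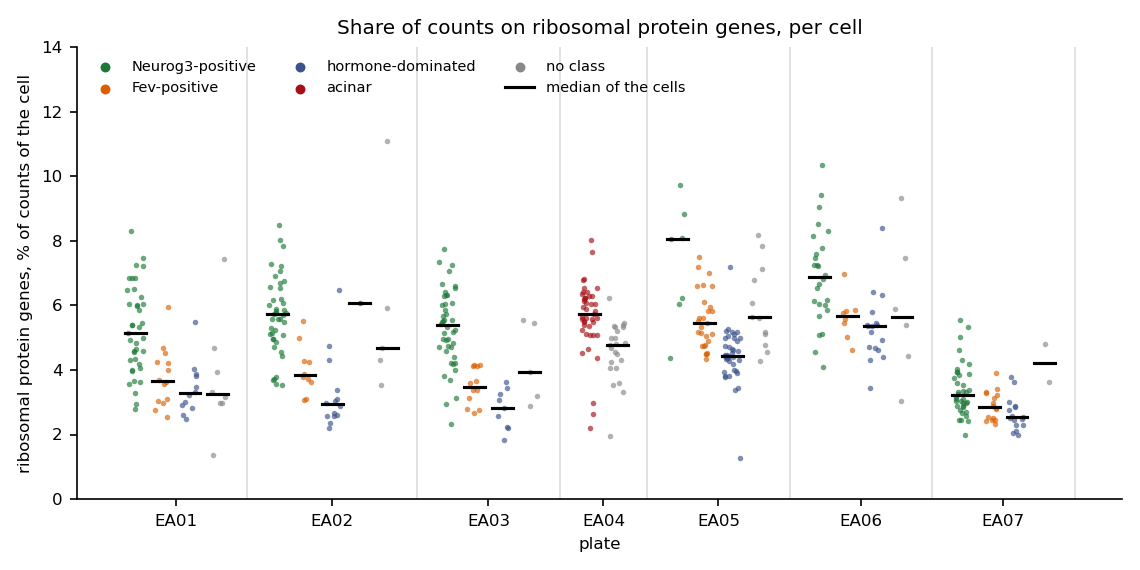
Share of each cell's counts on ribosomal protein genes (y axis, % of counts) by plate (x axis) and class (colour), 1 point per cell, with the median of the cells as a bar. In each of the 6 plates that hold the 3 endocrine classes, the Neurog3-positive median is the highest of the 3, from 3.22% in EA07 to 8.05% in EA05, and the points of the classes overlap.

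Other measures of the libraries moved with the classes. In EA01 to EA03 hormone-dominated cells had a median of 3277.5, 3147 and 3614 detected genes by plate, against 2417, 2419 and 2415.5 in Neurog3-positive cells. Rn45s held 18.1% to 19.9% of the counts in hormone-dominated and 21.8% to 22.8% in Neurog3-positive cells of these plates. The classes also lay in different wells: in EA01 to EA03 all but 16 of the Neurog3-positive cells were in rows A, B, E and F, while of 35 hormone-dominated cells 4 were in those rows, 18 in rows C and G and 13 in rows D and H. Within rows A, B, E and F the ribosomal protein share was 5.60% in Neurog3-positive, 4.24% in Fev-positive and 3.94% in hormone-dominated cells. Within rows C and G it was 4.20% in 16 Neurog3-positive cells, 3.36% in 20 Fev-positive cells and 2.90% in 18 hormone-dominated cells. The order of the classes was the same within each set of rows, with a log2 ratio of hormone-dominated to Neurog3-positive shares of -0.51 and -0.53, against -0.76 over all wells of these plates. The part of gene number and well position in the difference was not tested beyond these values.

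Among hormone-dominated cells of EA01 to EA03 the share was 2.86% in 20 insulin, 3.12% in 7 glucagon, 4.41% in 6 somatostatin and 3.09% in 2 ghrelin cells. In EA05 the insulin, glucagon and somatostatin cells stood at 4.396%, 4.70% and 4.65%. The somatostatin cells ranged from 2.61% to 6.48% in EA01 to EA03, so that they overlapped the insulin cells, which ranged from 1.82% to 4.04%.

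In hormone-dominated against Neurog3-positive cells of EA01 to EA03, 81 members had at least 20 CPM in either class, and 76 of them were lower in hormone-dominated cells. Over 2-fold lower were 15 members, against 20.5% of all 7569 genes measured, and 1 was over 2-fold higher, against 17.8% of genes. The share of members past 2-fold downward was thus close to that of all genes, while the median log2 ratio of members was -0.71 and that of all genes -0.11 (CPM plus 5). The members lay close together, with the middle of them, from the first to the third quartile, between -0.91 and -0.43. Of 81 members at 20 CPM or more in every plate, 56 were lower in hormone-dominated cells in all 6 plates and 1, Rpl36al, was higher in all 6. No such count over all genes is given here. Within EA01, EA02, EA03, EA05, EA06 and EA07 the median log2 ratio of members was -0.55, -0.77, -0.80, -0.66, -0.37 and -0.35. That of all genes was -0.16, -0.19, -0.18, 0.36, -0.03 and -0.16.

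The members with low ratios included Rps9, a protein of the small subunit body, Rpl32 of the large subunit and Rpsa. Rps9 went from 2027 CPM (619 to 3978, median 2032) to 761 CPM (78.6 to 1926, median 669.6), a log2 ratio of -1.41. The cell ranges overlapped, and no hormone-dominated cell reached the Neurog3-positive median of Rps9. It was lower in all 6 plates, from -1.76 in EA03 to -0.80 in EA07. Rpl32 had 1311 and 512 CPM, a log2 ratio of -1.35. Rpsa, the laminin receptor gene whose protein sits on the small subunit, had 815 and 323 CPM, a log2 ratio of -1.32, but only -0.20 in EA05. Rpl7l1, a paralogue of Rpl7, had the lowest summed ratio (108.7 and 33.9 CPM, -1.55), yet it was at 0 in 76 Neurog3-positive and 20 hormone-dominated cells, and it was higher in hormone-dominated cells of EA05 and EA06.

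Other members that stand apart by role were less uniform. Rplp0, which holds the acidic stalk of the large subunit, had 1864 CPM in Neurog3-positive and 1097 CPM in hormone-dominated cells of EA01 to EA03 (-0.76) and was lower in all 6 plates. The stalk proteins Rplp1 and Rplp2 had log2 ratios of -0.05 and -0.42 there, and Rplp1 was lower in 4 plates and higher in 2. Rps27a, which is made as a fusion with ubiquitin, had 654 and 505.9 CPM (-0.37) and was lower in 5 of 6 plates. The low-level look-alikes varied from plate to plate: Rps19bp1 ranged from -2.30 to 1.05 and Rps4y2 from -1.09 to 1.102 over the 6 plates.

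**Figure D2:**
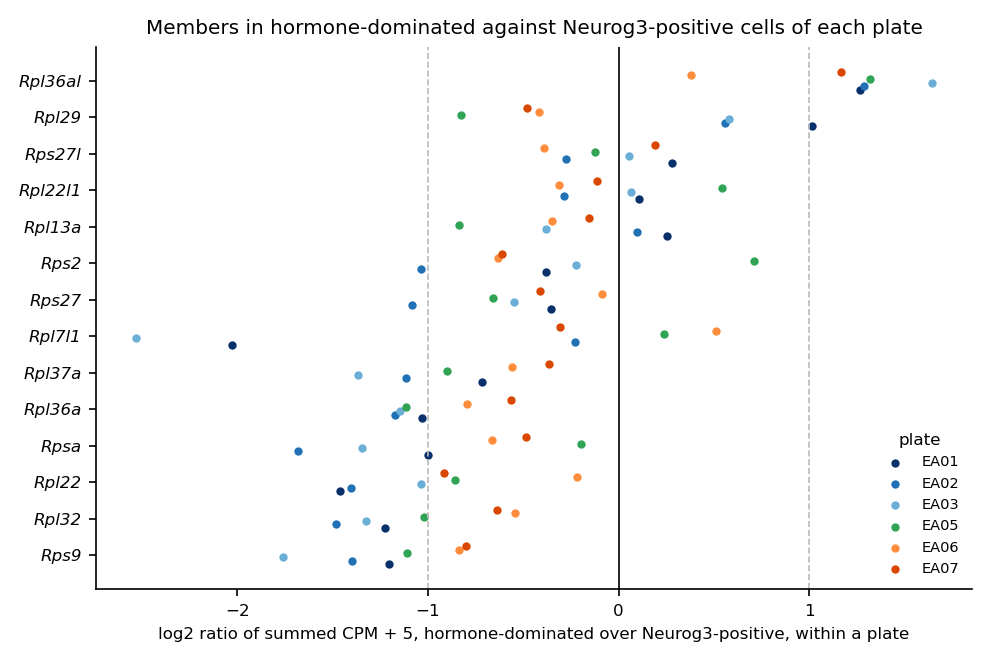
Log2 ratio of summed CPM plus 5 in hormone-dominated over Neurog3-positive cells (x axis) for 14 members (y axis), 1 point per plate (colour), with dashed lines at 2-fold. Rps9, Rpl32, Rpl22 and Rpsa lie below 0 in every plate, and Rpl36al lies above 0 in every plate, from 0.38 in EA06 to 1.64 in EA03.

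Over plates EA06 and EA07 the share of hormone-dominated cells was 3.85% and that of Neurog3-positive cells 4.45%, a log2 ratio of -0.21. Within the plates the ratio was larger, -0.37 in EA06 and -0.38 in EA07, since the 2 plates differ in level and hold the classes in different proportions. Of 83 members measured in the pooled comparison 62 were lower in hormone-dominated cells, with a median log2 ratio of -0.17 against -0.11 for all genes, and with other scalings 48 to 49 were lower. None was over 2-fold lower, against 16.8% of all genes, and 1 was over 2-fold higher, against 10.9%. That 1 member was Rpl34, named here after its values were seen, with 34 CPM in hormone-dominated cells, 12.9 in Neurog3-positive cells and 5 near-identical pseudogenes. Rps9 was again among the 5 lowest, with a log2 ratio of -0.65.

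The 2 genes of the Rpl36a pair encode near-identical proteins of the large subunit. They differed in opposite directions between Neurog3-positive and hormone-dominated cells on all 6 plates. Between Neurog3-positive and Fev-positive cells they did so on 5 plates. In EA06 both were lower in Fev-positive cells, Rpl36al with 240 against 283 CPM and Rpl36a with 150 against 217 CPM. Rpl36al had 150.7 CPM (interval 147.6 to 153.8) in Neurog3-positive, 209 in Fev-positive and 402 (392 to 413) in hormone-dominated cells of EA01 to EA03. Rpl36a had 210.4 CPM (interval 207 to 214), 99.5 CPM and 94.98 CPM (90.1 to 100.1) in the same classes. Rpl36al was thus the lower of the pair in Neurog3-positive cells and the higher in both later classes of these plates, with transcripts of like length (526 and 483 nt). Rpl36a has 3 near-identical pseudogenes in the annotation and Rpl36al 1, so the level of 1 gene against the other is uncertain. Counted over the pair, Rpl36al made 43.7%, 41.4% and 40.1% of the counts in Neurog3-positive cells of EA01, EA02 and EA03, and 51.5%, 56.7% and 51.7% in EA05, EA06 and EA07. In Fev-positive cells it made 58.8%, 70.8%, 74.3%, 70.2%, 61.5% and 60.8% on the same 6 plates. In hormone-dominated cells it made 79.98%, 80.2%, 83.1%, 85.6%, 75.1% and 78.96%. The order Neurog3-positive, Fev-positive, hormone-dominated was the same in all 6 plates. Among cells with at least 20 counts on the pair, Rpl36al held more than 50% in 40.3% of Neurog3-positive cells (79 cells), 75.3% of Fev-positive cells (64) and 95.2% of hormone-dominated cells (99).

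The pattern was not limited to 1 hormone: in EA01 to EA03 the part of Rpl36al was 82.1% in 20 insulin, 72.2% in 7 glucagon and 79.3% in 6 somatostatin cells, and in EA05 it was 86.8% in 26 insulin, 82.3% in 8 glucagon and 83.2% in 4 somatostatin cells. In acinar cells of EA04 Rpl36al made 56.7% of the pair (311 CPM, against 238 for Rpl36a), and in the other cells of that plate 49.02%. The coding sequences of the pair are 318 nt each and 87.7% identical. Rpl36al lies at chr12:69182731-69184083 (minus strand, GRCm38), where GENCODE M21 also lists the overlapping protein-coding gene Gm49383 on the same strand, and Rpl36a at chrX:134585654-134588062. The annotation used for the deposited counts is not given in the sources used here, and the part of such overlaps was not tested.

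The other pairs were less regular. Rpl22 was lower in hormone-dominated than in Neurog3-positive cells (85.3 and 221 CPM in EA01 to EA03), while its paralogue Rpl22l1 had 167 and 170 CPM. Rpl22l1 made 48.4%, 40.4%, 41.3%, 46.01%, 64.03% and 44.4% of the pair in Neurog3-positive cells of EA01, EA02, EA03, EA05, EA06 and EA07. In hormone-dominated cells it made 74.5%, 60.3%, 60.7%, 69.6%, 62.6% and 58.7%, higher in 5 of 6 plates and slightly lower in EA06. Rps27l made more than 50% of its pair in most cells of every class, in 86.7% of Neurog3-positive and 91.6% of hormone-dominated cells with at least 20 counts on it. Rps27 has 3 near-identical pseudogenes in the annotation and Rps27l 0, so its counts may be understated against those of Rps27l.

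**Figure D3:**
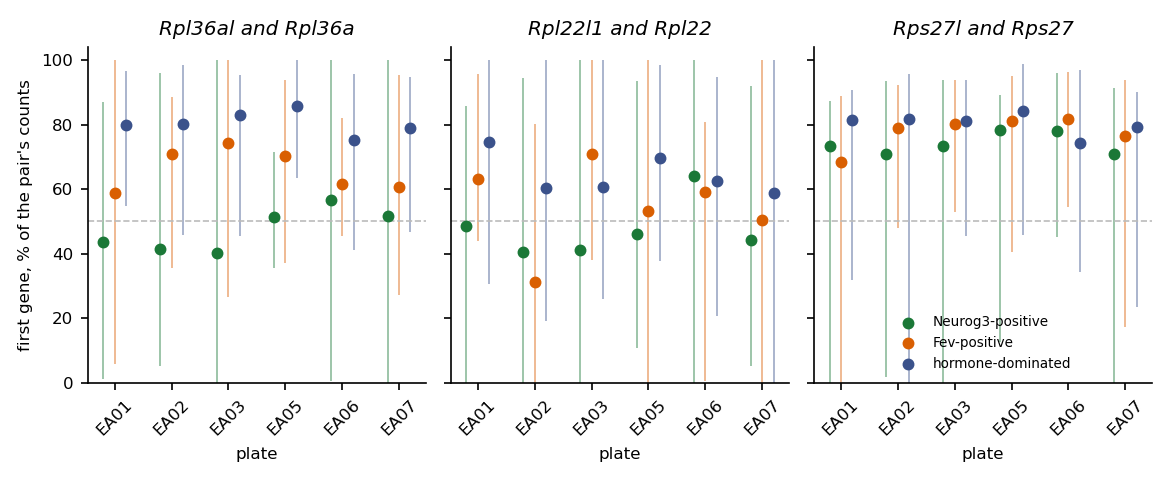
Part of the first-named gene in the summed counts of each paralogue pair (y axis, %), by plate (x axis) and class (colour), with points for the summed counts and lines from the lowest to the highest cell with at least 20 counts on the pair. Rpl36al goes from 40.1% to 56.7% in Neurog3-positive to 75.1% to 85.6% in hormone-dominated cells, and single cells span wide ranges in every pair.

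In Fev-positive against Neurog3-positive cells of EA01 to EA03, 77 of 81 members were lower, with a median log2 ratio of -0.49 against 0.11 for all genes. No member was over 2-fold higher, against 19.1% of all genes, and 3 were over 2-fold lower, against 16%. These were Rpsa, Rpl36a and Rps15a. Rpsa had 815 CPM in Neurog3-positive cells (0 to 3043, median 695) and 338 CPM in Fev-positive cells (0 to 987, median 271), a log2 ratio of -1.25, and the cell ranges overlapped from 0 upward. It was lower in Fev-positive cells on every plate, by log2 ratios from -1.77 in EA02 to -0.46 in EA07. Rpl36a had 210.4 and 99.5 CPM (-1.04) and was lower on all 6 plates. Rps15a had 454 and 222 CPM (-1.01), but it was lower on 4 plates and higher on 2, from -1.24 to 0.15. Without EA01 6 members were over 2-fold lower. In EA06 and EA07, 78 of 82 members were lower in Fev-positive cells, with a median of -0.32 against 0.00 for all genes, and none passed 2-fold, against 12.5% of genes upward and 13.4% downward. Rpsa (-0.72) and Rpl32 (-0.70) were among the lowest there too. These 2 plates differ in level and hold the classes in different proportions, so the pooled values overstate the difference. The pooled log2 ratio of the share was -0.33, against -0.30 within EA06 and -0.23 within EA07. Over all 6 plates, 54 of 81 members were lower in Fev-positive cells in every plate and none was higher in every plate. A matching count over all genes is not given here. Within EA01, EA02, EA03, EA05, EA06 and EA07 the median log2 ratio of members was -0.41, -0.51, -0.61, -0.42, -0.25 and -0.19. That of all genes was -0.02, 0.06, 0.06, 0.48, -0.21 and -0.007.

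The quotient of summed large-subunit to small-subunit messenger RNA counts also differed between the classes, and members with many counts weigh most in it. The median members of the 2 subunits lay closer together. Their log2 ratios in hormone-dominated against Neurog3-positive cells were -0.71 (large) and -0.78 (small) in EA01 to EA03. In EA06 and EA07 they were -0.18 and -0.21. Large-subunit counts divided by small-subunit counts came to 1.19, 1.19, 1.21, 1.24, 1.13 and 1.28 in Neurog3-positive cells of EA01, EA02, EA03, EA05, EA06 and EA07. The same quotient was 1.39, 1.40, 1.40, 1.24, 1.17 and 1.39 in hormone-dominated cells, higher on all 6 plates, with the smallest gap in EA05 (1.238 and 1.243). Without Rps14 and Rps9, small-subunit members with many counts, the quotients of EA05 turned to 1.51 in Neurog3-positive and 1.48 in hormone-dominated cells, and those of the other 5 plates kept their direction. In Fev-positive cells the quotient was 1.26, 1.22, 1.39, 1.208, 1.26 and 1.41, above Neurog3-positive cells on 5 plates and below them in EA05. Single cells overlapped widely: in EA01 they ranged from 0.975 to 1.61 in Neurog3-positive and from 1.06 to 1.66 in hormone-dominated cells.

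Acinar cells carried a ribosomal protein share like that of Neurog3-positive cells of the same library batch, with a few members apart from the rest. The summed share was 5.68% in 43 acinar cells of EA04 (cells from 2.20% to 8.01%, median 5.73%) and 5.43% in the Neurog3-positive cells of EA01 to EA03 (2.32% to 8.49%, median 5.46%). Of 83 members measured, 43 were higher and 40 lower in acinar cells, with a median log2 ratio of 0.05 against -0.25 for all genes. This split depends on the scale: with TMM factors 60 were higher and 23 lower, and with DESeq2 size factors 64 and 19, where the median of all genes lay at -0.06 and -0.02. Plate and class cannot be told apart here, since EA04 held no Neurog3-positive cell. Over 2-fold higher were 6 members, against 18% of all genes, and 1 was over 2-fold lower, against 26.7%.

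The highest ratio among these was that of Rps27l, the paralogue of Rps27. It had 719 CPM in acinar cells (154.8 to 1515, median 703), 263 CPM in Neurog3-positive cells (0 to 932, median 238) and 272 CPM in the other cells of EA04 (22.1 to 648.3, median 248). The acinar median thus lay above the highest other cell of the same plate. Its log2 ratio was 1.43 against Neurog3-positive cells and 1.39 within EA04, while Rps27 had 63.2 CPM in acinar cells, 99.8 in Neurog3-positive cells and 88.96 in the other cells of EA04. All 43 acinar cells of EA04 had more counts on Rps27l than on Rps27, and Rps27l made 91.9% of the pair, where counts of Rps27 may be understated. The single acinar cell outside EA04, in EA02, stood at 845 CPM of Rps27l and 92.04% of the pair.

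Rps2, a small-subunit protein at the messenger RNA entry site, had 1234 CPM in acinar and 536 CPM in Neurog3-positive cells, a log2 ratio of 1.196, and 795 CPM in the other cells of EA04. Rpsa had 1697 CPM in acinar and 815 CPM in Neurog3-positive cells (1.05), and 1364 CPM in the other cells of EA04. For both, then, the other cells of the plate stood between the 2 classes. Rps2 and Rpsa have 23 and 10 near-identical pseudogenes in the annotation. Rpl30 (96.5 and 37.7 CPM, 1.25), Rpl26 (54.1 and 17.1 CPM, 1.42) and Rpl36al (1.02) completed the 6. The 1 low member was Rpl37a, a small zinc-binding protein of the large subunit, with 424 CPM in acinar cells (65.1 to 780.4, median 417), 944 CPM in Neurog3-positive cells (239 to 1821, median 960.2) and 418 CPM in the other cells of EA04. No acinar cell reached the Neurog3-positive median, and the other cells of the plate were as low.

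**Figure D4:**
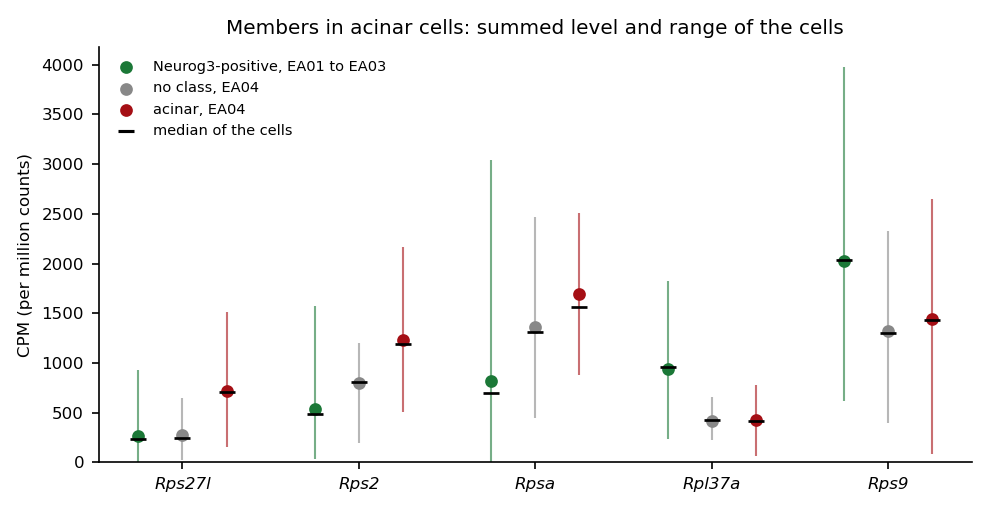
Levels of 5 members (x axis) in CPM (y axis) in Neurog3-positive cells of EA01 to EA03 and in acinar and other cells of EA04, with points for the summed level, lines from the lowest to the highest cell and bars for the median cell. Rps27l stands at 719 CPM in acinar cells and at 263 and 272 CPM in the others, while Rpl37a is at 424 and 418 CPM in both groups of EA04 and at 944 CPM in Neurog3-positive cells.

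Within EA04, the acinar share of 5.68% stood above the 4.65% of the 23 other cells (lowest 1.956%, highest 6.24%), which carried mesenchyme markers at a median of 6433 CPM and duct markers at 843 CPM. Here 78 of 83 members were higher in acinar cells, with a median log2 ratio of 0.29 against -0.30 for all genes, and 6 of 43 acinar cells lay below the median of the others. Over 2-fold higher were 3 members (Rps27l, Rpl26 and Rps19bp1), against 13% of all genes, and none was over 2-fold lower, against 27.6%.

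The comparison of hormone-dominated cells between the stages turned on which E17.5 plate was used. The share was 4.49% at E15.5 (EA05, 39 cells), 5.31% in EA06 (17 cells) and 2.61% in EA07 (16 cells), and 3.85% over both E17.5 plates. The log2 ratio was -0.22 over both plates, 0.24 with EA06 alone and -0.78 with EA07 alone. Of 83 members measured, 68 were lower at E17.5 in the pooled comparison, with a median log2 ratio of -0.28 against 0.11 for all genes. Over 2-fold higher were 2 members, Rpl29 and Rpl34, against 20.9% of all genes, and 1 was over 2-fold lower, Rps4y2, against 12.1%. With EA06 alone 60 of 83 were higher than in EA05, 2 of them over 2-fold (21.4% of all genes), and 1 was over 2-fold lower (23.3%). With EA07 alone 77 of 83 were lower, 34 of them over 2-fold (18.4% of all genes), and 2 were over 2-fold higher (26%).

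Rpl29, a large-subunit protein, had the highest ratio of the members between the stages. Rpl34 was second, with 34 CPM in hormone-dominated cells of EA06 and EA07 and 6.83 CPM in those of EA05 (log2 ratio 1.72), or 2.07 with EA06 alone and 1.33 with EA07 alone, and it was at 0 in 27 of the 39 cells of EA05. The level of Rpl29 over all cells was 46.6, 47.9, 37.7, 36.7 and 39.6 CPM in EA01 to EA05 in that order, 339.6 CPM in EA06 and 143.2 CPM in EA07. Both E17.5 plates thus stood above all E15.5 plates, and they did so in each endocrine class: in Neurog3-positive cells Rpl29 had 37.1 CPM in EA01 to EA03, 64.5 CPM in EA05 and 236 CPM in EA06 and EA07. In hormone-dominated cells it went from 34.2 CPM in EA05 to 202 CPM in EA06 and EA07, a log2 ratio of 2.40, which was 3.002 with EA06 alone and 1.58 with EA07 alone. The median hormone-dominated cell of the E17.5 plates had 147.6 CPM of Rpl29, above the highest of the 39 cells of EA05 at 95.4 CPM. Rpl29 has 26 near-identical pseudogenes in the annotation, and stage, strain and library cannot be told apart.

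The difference between the 2 plates of the same E17.5 label was larger than that between any endocrine classes of 1 plate, with log2 ratios of the share of -1.01 in Neurog3-positive, -0.95 in Fev-positive and -1.02 in hormone-dominated cells. In Neurog3-positive cells the share was 6.86% in EA06 (26 cells, 4.08% to 10.4%) and 3.397% in EA07 (38 cells, 1.98% to 5.54%). Median detected genes were 2170 and 3825 per cell, and median counts 533996.5 and 854956.5. In EA07, 77 of 81 members were lower and 55 were over 2-fold lower, against 18.4% of all genes, with a median log2 ratio of -1.14 against 0.26, and none was over 2-fold higher, against 32.3% of genes. In Fev-positive cells 46 of 82 members were over 2-fold lower (23% of all genes) and none over 2-fold higher (44.4%), and in hormone-dominated cells 51 of 83 (23.9%) and none (31.8%).

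The difference between these plates went with transcript length, in members of up to 2000 nt and in other genes of up to 4000 nt. Among Neurog3-positive cells, the 25 members of up to 600 nt had a median log2 ratio of -1.23 and the 97 other genes of that length -1.19. Between 600 and 800 nt the medians were -1.17 in 18 members and -1.02 in 183 other genes. The medians of members and other genes were thus close at these lengths, while more of the members passed 2-fold. Up to 600 nt, 88% of members and 62.9% of other genes were over 2-fold lower, and from 600 to 800 nt 83.3% and 52.5%. Between 800 and 1000 nt the medians were -1.10 in 17 members and -0.64 in 253 other genes. Between 1000 and 1300 nt the medians were -1.01 in 10 members and -0.36 in 495 other genes, and between 1300 and 2000 nt -0.43 in 6 members and 0.41 in 1407 other genes, so that longer members were lower than other genes of their length. The members with the highest ratios were mostly long ones: Rpl3 (0.65, 1351 nt), Rpl7l1 (0.45, 2606 nt) and Rpl4 (0.09, 1538 nt), large-subunit genes, with Rps2 at -0.17 (998 nt). Rps4y2, which has no reference length here, stood between Rpl7l1 and Rpl4 at 0.28. Among longer members the trend did not hold: the 3 of 2000 to 4000 nt had a median of -0.95, against 0.76 in 3268 other genes. Rps15a, with a reference transcript of 5130 nt, had a ratio of -1.62. Between the stages, members of up to 800 nt had a median of -0.40 and other genes of that length -0.57 in hormone-dominated cells at E17.5 against E15.5.

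**Figure D5:**
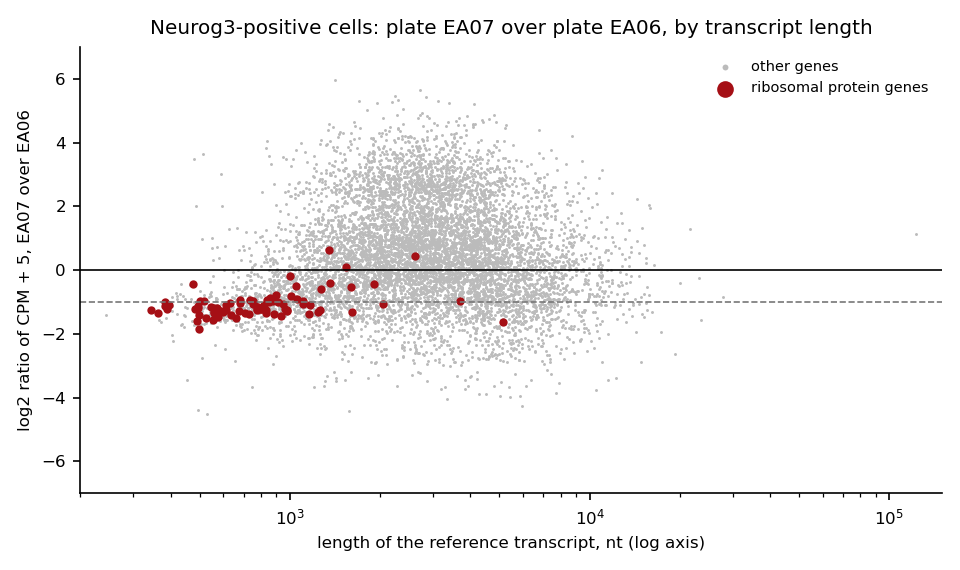
Log2 ratio of summed CPM plus 5 in Neurog3-positive cells of EA07 over those of EA06 (y axis) by length of the reference transcript in nt (x axis, log scale), for ribosomal protein genes and for other genes with 20 CPM or more. Members of up to 600 nt lie around a median of -1.23, near the median of other genes of that length (-1.19), while other genes of 2000 to 4000 nt lie around 0.76.

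Among the class differences, length went with the ratios in some comparisons and not in others. In hormone-dominated against Neurog3-positive cells of EA01 to EA03, 43 members of up to 800 nt had a median log2 ratio of -0.65 and 285 other genes of that length 0.13. The 27 members of 800 to 1300 nt had -0.71 and 744 other genes -0.15, and the 10 longer members -0.82 and 6229 other genes -0.12. Members were lower than other genes in each of these 3 length ranges. In the same comparison of EA06 and EA07 the medians of other genes fell with length, at 0.28, 0.10 and -0.15 in the 3 ranges, and those of members were -0.10, -0.25 and -0.28. EA06 and EA07 themselves differ with length, and they held 17 and 16 hormone-dominated but 26 and 38 Neurog3-positive cells. Class and plate therefore cannot be told apart in these pooled medians. In acinar against other cells of EA04 other genes had medians of -0.03, -0.03 and -0.36 and members 0.24, 0.38 and 0.31. The part of length in the class differences was not tested.

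Other genes of translation were taken from lists chosen with earlier results of these data known. In hormone-dominated against Neurog3-positive cells of EA01 to EA03, all 13 measured elongation factors and other TOP genes were lower, 5 of them over 2-fold, with a median of -0.84. Over all genes of this comparison 20.5% were over 2-fold lower and the median was -0.11. Eef1a1, which delivers transfer RNA to the ribosome, had 2801 and 6051 CPM (-1.11), and Npm1, a nucleolar chaperone of ribosome assembly, had 352 and 1053 CPM (-1.57). Of 26 ribosome biogenesis genes 19 were lower and 9 over 2-fold lower (median -0.40), and of 27 initiation factors 22 were lower and 6 over 2-fold lower (median -0.43), the latter count being near the share of all genes. Of 76 mitochondrial ribosome genes, which encode the separate ribosome of mitochondria, 57 were lower and 10 over 2-fold lower, a smaller share than that of all genes, with a median of -0.28. In Fev-positive cells all 13 elongation and TOP genes were again lower, none over 2-fold, with a median of -0.44, while the mitochondrial ribosome genes had a median of 0.06. In EA06 and EA07 the elongation and TOP genes had medians of -0.19 in hormone-dominated cells, where 11 of 13 were lower, and -0.24 in Fev-positive cells, where all 13 were lower.

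In acinar cells the biogenesis list stood higher. Against the other cells of EA04, 27 of 31 ribosome biogenesis genes were higher and 11 were over 2-fold higher, with a median of 0.87, and none was over 2-fold lower, where 13% of all genes were over 2-fold higher and 27.6% lower, with a median of -0.30. Nolc1, a nucleolar protein, had 121.8 and 21.7 CPM there (2.25), and Nip7, a factor of ribosome assembly, 149.96 and 43.5 CPM (1.68). Against Neurog3-positive cells 13 of 31 were over 2-fold higher (median 0.83), where 18% of all genes were and the median of all genes was -0.25, among them Ncl, the nucleolar protein nucleolin, at 721 and 165 CPM (2.10). Among growth control genes Myc, a transcription factor that drives genes of ribosome assembly, had 175 CPM in acinar cells, 14.6 CPM in the other cells of EA04 and 4.78 CPM in Neurog3-positive cells. Mycn, a related gene, went the other way within EA04, with 0.16 CPM in acinar and 44.8 CPM in the other cells (-3.27). Mycl1, of the same family, had 5.72 CPM in acinar, 108.1 CPM in Neurog3-positive, 21.03 CPM in Fev-positive and 4.07 CPM in hormone-dominated cells of the first batch. For the ribosomal protein genes themselves the median within EA04 was 0.29, below that of the biogenesis list.

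The TOP-like tract did not set members apart in these ratios. Without paralogues, 26 members with the tract had a median log2 ratio of -0.64 and 29 without it -0.76 in hormone-dominated against Neurog3-positive cells of EA01 to EA03. In Fev-positive cells the medians were -0.53 and -0.51. The ranges overlapped nearly whole, from -1.41 to 0.05 with the tract and from -1.32 to -0.07 without it in hormone-dominated cells.

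Within the Neurog3-positive class, the share of single cells and their Neurog3 level had a Spearman correlation of 0.72 over 26 cells of EA06 and 0.45 over 38 cells of EA07, and of -0.18, 0.16 and -0.16 over 39, 42 and 44 cells of EA01, EA02 and EA03. The cells of a plate share its library preparation, and both values are shares of the same total. The number of detected genes and the ribosomal protein share had correlations of -0.41, -0.15, -0.02, -0.39 and -0.03 on EA01, EA02, EA03, EA06 and EA07, so that the sign was the same on all 5 plates, near 0 on 2 of them.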

How the data were processed

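Per the labels, single cells of embryonic mouse pancreas were sequenced with Smart-seq2; per the submitters' processing notes the authors used STAR, HTSeq, FastQC and mm10, with versions, annotation and strand setting not given in the sources used here. The deposited values are whole-number counts per gene and cell, not normalized; strand is not marked, and PCR copies count as reads. All 495 columns matched 1 sample each by name, and no 2 columns were identical. The column names carry the knock-in strain word also for EA06 and EA07; groups follow the labels. Members, lists and classes were chosen with earlier results of these data known. The filter asked for 50000 counts and 1000 detected genes in a cell and removed 0 cells; doublets were not called. Depth was 200152 to 1182889 counts per cell.

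Counts were summed per class and plate set, divided by the summed total and given as CPM, with exact Poisson intervals for levels and Clopper-Pearson intervals for shares (95%). Log2 ratios used a pseudocount of 5 CPM, which understates low genes, over members at 20 CPM or more in either class. The named genes were, among members at 50 CPM or more, the 5 highest and 5 lowest ratios of each comparison, the 5 highest levels per kilobase in Neurog3-positive cells, and the paralogues with their parent genes, Rplp0, Rplp1, Rplp2, Rpsa and Rps27a; of the other lists, up to 4 genes by size of ratio. Rpl34 falls outside it. Some members are not reported by name here. Levels per kilobase used the shortest best-supported principal transcript of GENCODE M21 (GRCm38); 85 of 86 members have one. Start windows are from RefSeq (GRCm38.p6; 65 members matched). Near-identical pseudogenes were found with BLAST 2.17.0. Alternatives were other pseudocounts, filters, denominators, class cuts, edgeR 4.0.16 TMM factors, DESeq2 1.42.0 size factors and each plate left out; comparisons within plates and within well rows were added after seeing the data. Scaling factors only were taken from edgeR and DESeq2. The calls were tested on simulated data, but the outcome is not reported here and no result rests on it. Python 3.11.15, pandas 2.3.3, scipy 1.17.1 and R 4.3.3 were used.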

Additional observations from a re-analysis of the deposited data

How the results depend on the processing

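Over the 7 comparisons of the share and of the number of members over 2-fold, 1 value changed direction. The log2 share ratio of hormone-dominated cells at E17.5 against E15.5 was -0.22 as reported, 0.24 without EA07 and -0.78 without EA06. It was -0.23 without Rn45s, -0.26 also without hormone and enzyme genes, -0.24 as a median over cells, -0.20 without paralogues, -0.26 and -0.21 with class cuts multiplied and divided by 2, -0.24 in cells of at least 300000 counts, -0.33 with TMM and -0.31 with DESeq2 factors, and its number of members 3 as reported, 5 with either factor and 3 to 36 without 1 plate.

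For acinar against Neurog3-positive cells the share ratio was 0.0658 as reported and 0.0863, 0.22, 0.0696 and 0.0470 in the first 4 of these settings, 0.0757 with cuts multiplied by 2, 0.0835 in cells of at least 300000 counts, 0.25 and 0.28 with the factors and 0.0374 to 0.11 without 1 plate (0.0374 without EA01, 0.11 without EA02); against other EA04 cells 0.29, then 0.31, 0.44, 0.27 and 0.28, and 0.56 and 0.56 with the factors, with 3 members, 1 with a pseudocount of 20 CPM and 5 with either factor. For hormone-dominated against Neurog3-positive cells of EA01 to EA03 it was -0.76, then in the order above -0.81, -0.66, -0.85, -0.78, -0.83, -0.73, -0.78, -0.71 and -0.67, from -0.85 to -0.71 without 1 plate, -0.59, -0.85 and -0.89 within EA01, EA02 and EA03, and -0.51 and -0.53 within well rows; 16 members became 25 in EA02, 35 in EA03 and 10 in rows C and G. For Fev-positive cells it was -0.52, then -0.58, -0.57, -0.57 and -0.53, -0.51 in cells of at least 300000 counts, -0.64 and -0.61 with the factors, -0.56 to -0.49 without 1 plate, -0.45, -0.51 and -0.59 within plates and -0.40 and -0.32 within rows; 3 members became 1 with a pseudocount of 20 CPM, 8 and 5 with the factors, 3 to 6 without 1 plate (6 without EA01), 5 in EA02, 16 in EA03 and 1 in well rows A, B, E, F.

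In EA06 and EA07 the hormone-dominated ratio was -0.21, then -0.22, -0.15, -0.11, -0.22, -0.27 and -0.16, with -0.11 and -0.10 for the factors, and -0.38 without EA06 and -0.37 without EA07; 1 member became 0 with a pseudocount of 20 CPM or a minimum of 50 CPM, 2 with DESeq2 factors and 1 to 2 without 1 plate (2 without EA06). The Fev-positive ratio was -0.33, then -0.34 without Rn45s, -0.32 as a median, -0.30 and -0.24 with other cuts, -0.36 and -0.34 with the factors and -0.30 to -0.23 without 1 plate; 0 members became 1 without EA06 and 2 without EA07. The cause of these shifts was not tested. No paired analysis was possible because no result comes from a test; differences between classes within each plate are given as values. The table held 0 mitochondrial and 0 spike-in rows, so the planned denominator without them removed Rn45s, hormone and enzyme genes only. Members below about 50 CPM rest on few counts per cell.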
